A study of Mus musculus with 9 samples.

Results

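Hox genes encode homeodomain transcription factors that give cells a record of position along the body axis and the limbs. They lie in the clusters HoxA, HoxB, HoxC and HoxD, and genes with low paralogue numbers act toward the head while those with high numbers act toward the tail and the limb tips. Adult mesenchymal cells, including skeletal stroma of the mouse, keep a Hox pattern of the region in which they arose, and several HoxA and HoxB genes are also active in blood stem and progenitor cells. The genes described here were the 38 Hox genes of a fixed list, measured through probe sets that the platform table pairs with no other gene. Of these, 37 had such a probe set, 1 each, among 19938 genes in all. The remaining gene, Hoxb8, had no probe set of its own, and no value is given for it.

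Expression was measured on Affymetrix Mouse Gene 1.0 ST arrays in lineage-negative, GFP-bright marrow cells of mice with gfp in 1 copy of the Cxcl12 locus (Cxcl12+/gfp), a genotype shared by both groups. The G-CSF group (5 arrays) was given granulocyte colony-stimulating factor over 5 days, at a daily 250 µg/kg, and the PBS group (4 arrays) only buffered saline over those 5 days. The labels used here name neither the bones that the cells came from nor the age of the mice, and do not say whether an array holds 1 mouse or a pool. The source names mention pre-B colonies and, for 4 G-CSF arrays, an Hspa9 genotype, against the titles and treatments that define the groups here. Levels are log2 RMA intensities (RMA is a background correction, normalisation and summary per probe set), and a change is the G-CSF mean minus the PBS mean in log2 units, with the standard error (SE) of a limma fit over 21789 probe sets. The 14 markers of CXCL12-abundant reticular stroma, Cxcl12 and Lepr among them, were all above the low-signal level defined below.

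The arrays fell into 2 sets on the first principal component, each with both groups, which the labels do not name. Because the sets were found in these same values, p-values of fits with the set as a block can be too small. Set 1 held G-CSF replicates 1, 2 and 3 with PBS replicates 1 and 2, and set 2 held G-CSF replicates 4 and 5 with PBS replicates 3 and 4. PBS replicate 3 stood apart, at 84.5 on that component against 40.8 for the next array, and had the narrowest interquartile range of log2 values (2.45, against 2.71 to 2.99 on the other arrays). Neutrophil marker means were 8.54 to 9.29 on the G-CSF arrays and 7.66 to 8.98 on the PBS arrays (15 of 15 measured). Blood stem and progenitor marker means were 4.62 to 4.88 on the G-CSF arrays and 4.59 to 4.94 on the PBS arrays (11 of 12 measured). Of the 11, 5 had a PBS mean above the low-signal level, Kit, Gata2, Myb, Hlf and Tal1 (5.35 to 5.82). The other 6, Cd34, Flt3, Mecom, Gfi1, Cd48 and Slamf1, had a PBS mean at or below it. In sorted cell populations such as these, fewer cells of a type and less RNA per cell cannot be told apart.

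The sequences shown first are promoters of measured Hox genes with a match to a cofactor site in the first listed window. Added to them is the promoter of the Hox gene with the smallest p-value. A link between these matches and the cofactor result below was not tested. Hox proteins bind DNA with partners of the Pbx, Meis and Pknox families, so windows of 250 bases before the annotated start were searched on both strands for TGATNNAT (a Hox-Pbx site) and TGACAG (a Meis or Pknox site), and for AGGTCA (the repeated unit of retinoic acid response elements). The windows are RefSeq sequence of build GRCm38.p6, found for 22 of the 38 genes. Capitals mark the matches, written 5′ to 3′ on the gene's strand.
Hoxa2, chr6:52164832-52165081, minus strand: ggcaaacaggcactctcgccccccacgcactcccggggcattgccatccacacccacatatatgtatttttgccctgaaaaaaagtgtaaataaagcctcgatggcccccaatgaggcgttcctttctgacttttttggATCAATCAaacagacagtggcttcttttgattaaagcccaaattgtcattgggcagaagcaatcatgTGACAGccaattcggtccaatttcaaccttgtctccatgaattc
Hoxa3, chr6:52213068-52213317, minus strand: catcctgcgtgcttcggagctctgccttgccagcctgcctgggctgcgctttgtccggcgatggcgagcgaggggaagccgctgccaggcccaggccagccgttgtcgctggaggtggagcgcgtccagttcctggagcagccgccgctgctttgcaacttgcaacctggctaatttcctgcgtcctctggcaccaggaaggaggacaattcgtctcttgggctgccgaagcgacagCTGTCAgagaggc
Hoxb1, chr11:96365508-96365757, plus strand: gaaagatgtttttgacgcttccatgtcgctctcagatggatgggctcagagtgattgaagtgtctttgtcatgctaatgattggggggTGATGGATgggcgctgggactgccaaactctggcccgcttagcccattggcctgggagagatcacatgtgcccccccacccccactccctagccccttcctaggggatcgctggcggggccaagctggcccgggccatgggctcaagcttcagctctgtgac
Hoxd10, chr2:74691641-74691890, plus strand: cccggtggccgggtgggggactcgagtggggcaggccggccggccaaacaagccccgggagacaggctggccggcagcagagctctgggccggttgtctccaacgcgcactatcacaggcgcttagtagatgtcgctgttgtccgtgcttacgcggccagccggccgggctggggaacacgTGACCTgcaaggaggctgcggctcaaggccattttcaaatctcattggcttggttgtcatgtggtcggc
Hoxa2 held both a TGATNNAT and a TGACAG match, which did not overlap. Hoxa3 held a TGACAG match, Hoxb1 a TGATNNAT match and Hoxd10 an AGGTCA match. The only listed Hoxa3 window lies beyond those of Hoxa5 and Hoxa6 as seen from Hoxa2, at a distal annotated start. The TGACAG count below includes its match. Over the first listed window of each measured gene, TGATNNAT was found for 2 of 13 genes above the low-signal level and 0 of 8 genes at or below it, TGACAG for 2 of 13 and 0 of 8, and AGGTCA for 3 of 13 and 3 of 8. Of all 32851 windows in the table, 7.68% held TGATNNAT, 15.9% TGACAG and 14% AGGTCA. The median number of CG dinucleotides was 8 (range 3 to 28) for the 13 genes, 16 (2 to 35) for the 8 genes, and 6 for all windows. Hoxa10 and Hoxd11 have a second window each, and with these in place of the first, TGATNNAT was found for 1 of the 8 genes (Hoxd11) and the median CG number was 13 for the 13 genes above the level and 20 for the 8 others, so the motif and CG counts rest in part on the start chosen. A match describes these letters and not a bound site.

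The Hox genes with a PBS mean above the low-signal level were those of HoxA up to paralogue 11, of HoxB up to paralogue 7, of HoxC from 4 to 10, and Hoxd8 and Hoxd9. The same 24 genes were above it in the G-CSF group. The low-signal level was the 95th percentile of 1035 olfactory receptor probe sets, 4.83 in G-CSF and 4.84 in PBS. RMA gives no detection call, and probe sets differ in affinity, so a level serves to place a gene above or below this line and not to rank genes. Above it lay 64.9% of the 37 Hox genes, close to the 61.9% of all probe sets tested, so the count itself sets the Hox genes apart from no other genes. Per cluster, the PBS means of 9 of 10 HoxA, 7 of 9 HoxB, 6 of 9 HoxC and 2 of 9 HoxD genes were above it. Hoxb5 (5.15 in PBS) lay nearest above the line and Hoxd3 (4.74 in PBS) nearest below it. Some single values of genes above the line were below the low-signal level of their own array. These were Hoxb5 and Hoxc4 on PBS replicate 3, Hoxc5 on G-CSF replicate 1, Hoxc8 on G-CSF replicate 3 and Hoxd9 on G-CSF replicate 5. The count was 20 at the 99th percentile (48.1% of all probe sets), which left out Hoxa11, Hoxb5, Hoxb7 and Hoxd9. At the 90th percentile of olfactory receptors, a line at 4.45, the count was 29 (70% of all probe sets). Hoxb9, Hoxb13, Hoxd3, Hoxd12 and Hoxd13 were then also above, so part of the split by paralogue number is lost there. At the 95th percentile of vomeronasal and taste receptors, a line at 4.09, the count was 35 (77.2% of all probe sets). Only Hoxd10 and Hoxd11 were not above it, so the split by paralogue number is not seen at that line.

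**Figure D1:**
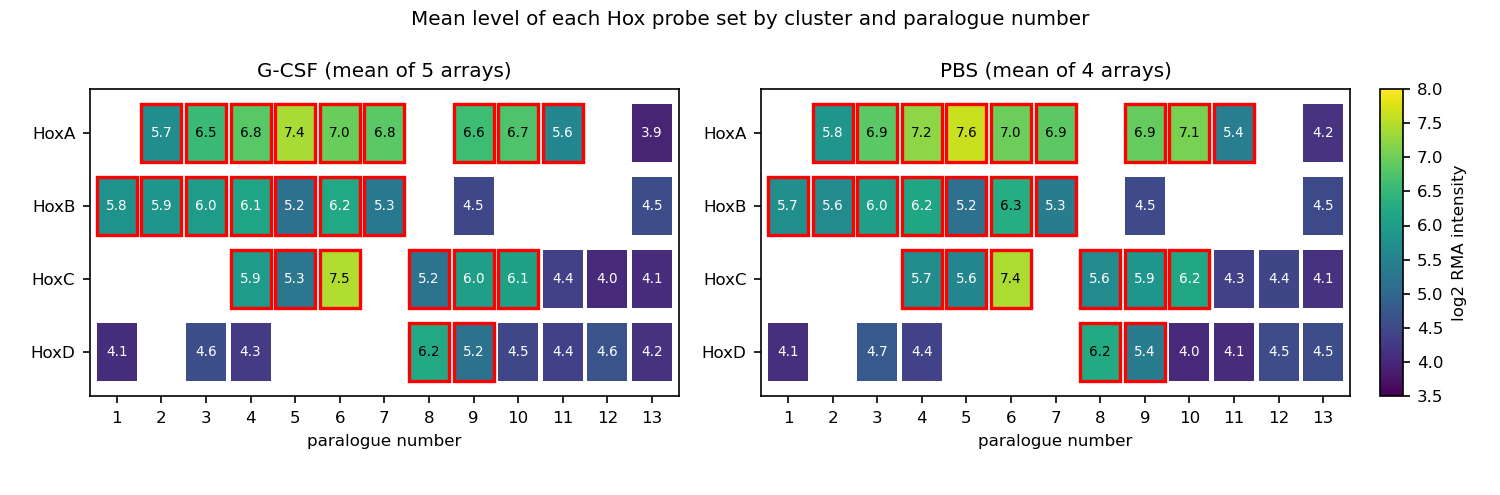
Mean log2 RMA intensity of each measured Hox gene, placed by paralogue number (horizontal) and cluster (vertical), over 5 G-CSF arrays (left) and 4 PBS arrays (right). Red frames mark means above the group's low-signal level (4.83 in G-CSF and 4.84 in PBS), and the same 24 genes are framed in both panels.

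Genes 11 to 13 of HoxC, 10 to 13 of HoxD, 13 of HoxA and 9 and 13 of HoxB lay at or below the line, as did Hoxd1, Hoxd3 and Hoxd4. Of the last paralogue group, Hoxa13 and Hoxd13 shape the hand, foot and genital tubercle, and all 4 members of the group were below the line in every array. Hoxa13 averaged 3.95 ± 0.45 in G-CSF (SD, n = 5) and 4.18 ± 0.30 in PBS (SD, n = 4), and Hoxc13 averaged 4.08 ± 0.28 in G-CSF and 4.14 ± 0.50 in PBS. Hoxb13 averaged 4.55 ± 0.21 in G-CSF and 4.49 ± 0.21 in PBS. Hoxd13 averaged 4.16 ± 0.23 in G-CSF and 4.55 ± 0.22 in PBS. Over all 13 genes at or below the line, PBS means spanned 3.99 to 4.74.

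After G-CSF, no Hox gene changed at the threshold of a Benjamini-Hochberg adjusted p under 0.05, against 1.62% of all 21789 probe sets (0.743% higher and 0.877% lower). In limma, adjusted p-values of the 37 genes ran from 0.163 (Hoxd10) upward, and 4 genes had an unadjusted p under 0.05, against 9.22% of all probe sets. Hoxd10 was the higher one (4.41% of all probe sets), and Hoxa4, Hoxc12 and Hoxd13 were lower (4.81% of all). The changes lay between -0.42 (Hoxc8) and 0.47 (Hoxd10), with a median of -0.06, against 0.01 for all probe sets. The 95% interval of the change stayed within 1 log2 unit (2-fold) either side of 0 for 36 of the 37, against 90.8% of all probe sets, the exception being Hoxa3. It stayed within 0.5 log2 units for 16 of the 37, against 39% of all. The groups did not overlap for 2 of the 37, against 4.65% of all probe sets, and these were Hoxd10, higher in G-CSF (2.18% of all), and Hoxc12, lower in G-CSF (2.46% of all). The count was 4 without G-CSF replicate 4, against 5.69% of all probe sets on the same arrays, and 5 without PBS replicate 3, against 8.35%. With the array set as a block, which called 2.74% of all probe sets, again 0 of the 37 passed.

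**Figure D2:**
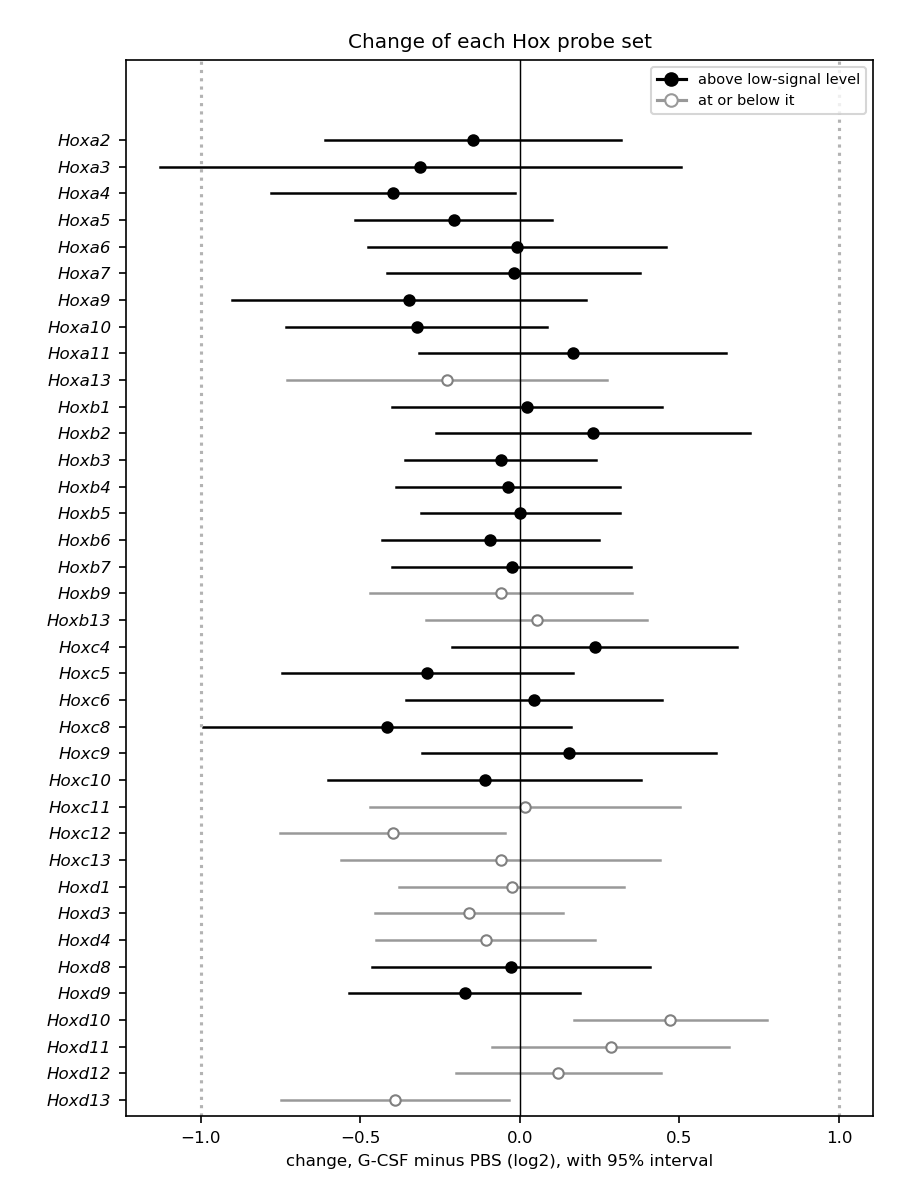
Change of each Hox probe set, G-CSF minus PBS in log2 units, with its 95% interval from limma; filled points are genes above the low-signal level over all arrays and open points the others. All points lie between -0.42 and 0.47, and only the interval of Hoxa3 crosses a 2-fold change (dotted lines).

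Of the HoxA genes, 9 of 10 had a change below 0 (median -0.22), against 48.7% of all probe sets, with no gene past the threshold. The change was below 0 for 8 of the 10 in set 1 and 8 in set 2, and for 7 in both sets. With 1 array left out it was below 0 for 7 to 9 of the 10, with medians from -0.28 (without PBS replicate 3) to -0.14 (without G-CSF replicate 5). HoxB, HoxC and HoxD had 5, 5 and 6 of 9 genes below 0, with medians of -0.03, -0.06 and -0.03. No test compared the clusters, and genes of a cluster are not independent replicates.

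Hoxa2, a patterning gene of the second pharyngeal arch, was at 5.43, 5.89, 5.95, 5.68 and 5.53 in G-CSF replicates 1 to 5, against 6.01, 6.01, 5.15 and 6.20 in PBS replicates 1 to 4. The groups overlapped through PBS replicate 3, the lowest of the 9 arrays. Hoxa3, required for thymus and parathyroid formation in the mouse, was at 6.69, 7.24, 6.71, 6.30 and 5.79 in G-CSF, against 7.48, 7.68, 6.45 and 5.82 in PBS. It followed the array sets more than the treatment, with a mean 1.07 higher in set 1 than in set 2, and its change was -0.70 within set 1 and -0.09 within set 2. Its SE of 0.38 was the largest of the 37 genes.

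Hoxa4, a gene of the cervical region, was at 6.63, 6.95, 6.83, 6.69 and 7.06 in G-CSF, against 7.65, 7.28, 6.85 and 7.14 in PBS. The 3 highest arrays were PBS arrays, but PBS replicate 3 lay among the G-CSF arrays. The change was -0.40 (SE 0.18), with a limma p of 0.0434 before adjustment and 0.51 after it. Hoxa5, which acts in the cervical and upper thoracic skeleton and in the lung, was at 7.45, 7.28, 7.42, 7.71 and 7.21 in G-CSF, against 7.50, 7.61, 7.70 and 7.68 in PBS. Of the 5 G-CSF arrays, 4 lay below all PBS arrays and G-CSF replicate 4 above them, and the change was -0.21 with an interval of -0.52 to 0.10.

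Hoxa6 was at 7.49, 7.12, 7.12, 6.75 and 6.39 in G-CSF, against 7.20, 6.89, 7.15 and 6.69 in PBS. Hoxa7 was at 7.07, 6.57, 7.20, 6.75 and 6.66 in G-CSF, against 7.27, 6.85, 6.65 and 6.71 in PBS. The groups overlapped for these trunk-level genes, and the changes were -0.01 and -0.02. Hoxa9, a regulator of blood progenitors and a driver of leukemia, was at 6.87, 6.51, 7.09, 6.19 and 6.30 in G-CSF, against 7.41, 7.36, 6.61 and 6.37 in PBS. The 2 highest arrays were PBS arrays of set 1, and within sets the change was -0.56 in set 1 and -0.24 in set 2 (limma adjusted p 0.823 over all arrays, and 0.22 where array set was a block).

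Hoxa10, which represses rib formation in the lumbar region, was at 6.88, 6.77, 7.10, 6.34 and 6.65 in G-CSF, against 7.45, 7.15, 6.92 and 6.76 in PBS. The groups overlapped, and the change of -0.32 (SE 0.19) was -0.38 within set 1 and -0.35 within set 2 and did not pass (limma adjusted p 0.723). Without PBS replicate 1, the highest array for Hoxa4, Hoxa9 and Hoxa10, their changes were -0.26, -0.19 and -0.20. Hoxa11, a gene of the forearm and lower leg, was at 5.68, 5.65, 5.38, 5.28 and 5.81 in G-CSF, against 4.73, 5.95, 5.44 and 5.46 in PBS. PBS replicates 1 and 2 were its lowest and highest arrays, so the PBS group enclosed the G-CSF group. Its change was 0.17, with an interval of -0.31 to 0.65. Because Hoxa9 and Hoxa10 are also active in blood progenitors, the progenitor marker values above stand beside them, and the part of such cells in these values was not tested.

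HoxB levels overlapped between the groups for every gene measured. Hoxb1, which patterns the hindbrain, was at 5.67, 5.55, 5.88, 5.81 and 5.94 in G-CSF, against 5.34, 5.62, 6.35 and 5.69 in PBS, so that the PBS arrays lay on both sides of the G-CSF arrays. Hoxb2 was at 6.05, 6.41, 5.94, 5.48 and 5.46 in G-CSF, against 5.72, 6.08, 5.50 and 5.26 in PBS. The 5 highest of its 9 values were the 5 arrays of set 1 and the 4 lowest those of set 2, a mean difference of 0.62 between sets, while the treatment change was 0.23 (interval -0.26 to 0.72).

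Hoxb3 was at 6.03, 5.92, 6.18, 5.87 and 5.86 in G-CSF, against 6.17, 6.15, 5.92 and 5.89 in PBS. Hoxb4, which expands blood stem cells when overexpressed, was at 5.92, 5.83, 6.28, 6.31 and 6.32 in G-CSF, against 6.21, 5.91, 6.37 and 6.18 in PBS. Hoxb5, a marker of mouse blood stem cells, was at 5.06, 5.07, 5.06, 5.24 and 5.35 in G-CSF, against 5.14, 5.40, 4.92 and 5.15 in PBS. The changes of these 3 genes were -0.06, -0.04 and 0.00, and the groups overlapped for all 3. The intervals were -0.36 to 0.24, -0.39 to 0.31 and -0.31 to 0.31.

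Hoxb6 was at 6.08, 6.56, 6.05, 6.33 and 5.95 in G-CSF, against 6.40, 6.27, 6.33 and 6.14 in PBS. Hoxb7 was at 5.36, 5.47, 4.98, 5.23 and 5.57 in G-CSF, against 5.21, 5.05, 5.66 and 5.46 in PBS. For both, the G-CSF arrays spanned the range of most PBS arrays, and the changes were -0.09 and -0.03. Hoxb9, below the line, had a change of -0.06.

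**Figure D3:**
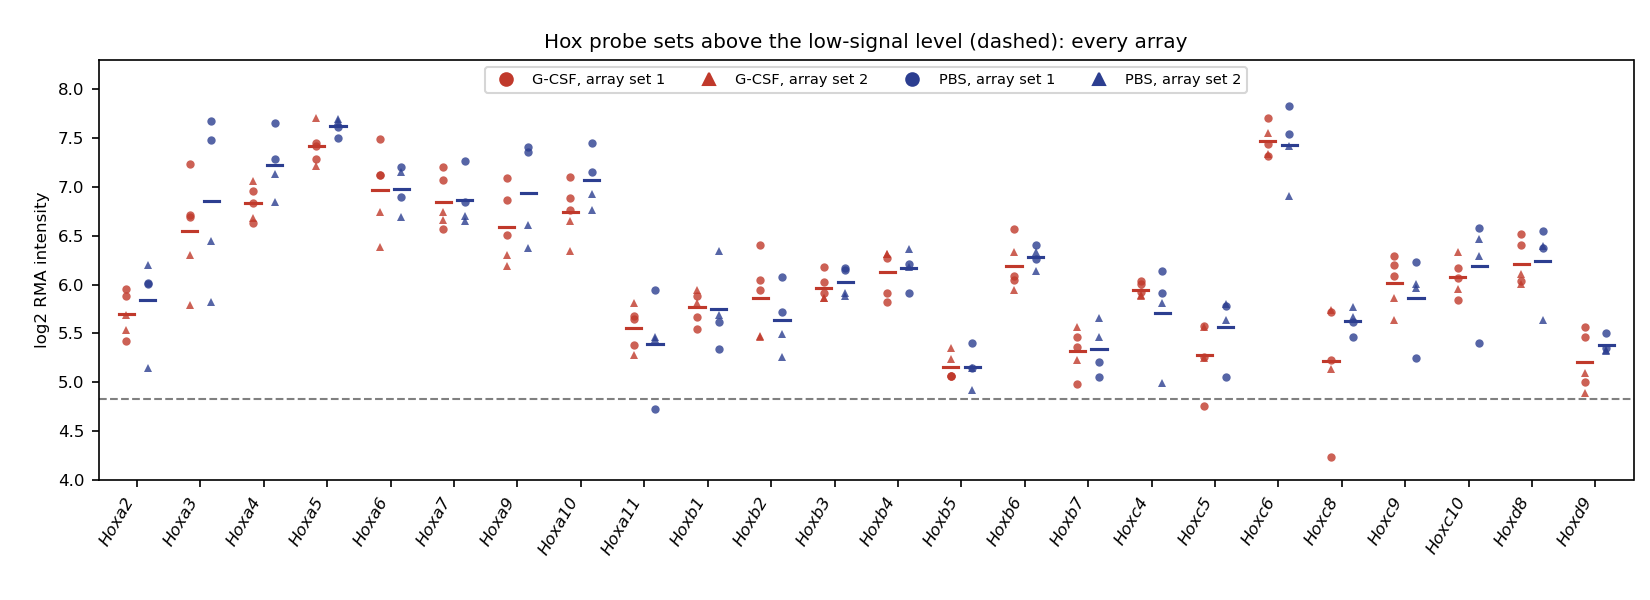
Log2 RMA intensity on every array for the 24 Hox genes above the low-signal level (dashed line, 4.82 over all arrays). Red points are 5 G-CSF arrays and blue points 4 PBS arrays, circles array set 1 and triangles array set 2, bars group means. The groups overlap for every gene shown. Hoxa3 and Hoxb2 separate by array set, as do Hoxb3 and Hoxc4 by narrow margins.

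In HoxC, the central genes were above the line and again overlapped between groups. Hoxc4 was at 6.04, 6.01, 5.93, 5.89 and 5.88 in G-CSF, against 6.14, 5.91, 4.99 and 5.81 in PBS. PBS replicate 3 was the lowest array by a wide margin, and without it the change was -0.0057, against 0.23 with all arrays. Hoxc5 was at 4.75, 5.58, 5.26, 5.25 and 5.56 in G-CSF, against 5.78, 5.05, 5.64 and 5.80 in PBS. The 3 highest arrays were PBS arrays, and PBS replicate 2 lay near the low end (change -0.29, interval -0.75 to 0.17).

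Hoxc6, a gene of the thoracic region, was at 7.71, 7.32, 7.44, 7.55 and 7.34 in G-CSF, against 7.54, 7.82, 6.91 and 7.42 in PBS. The PBS arrays enclosed the G-CSF arrays, with a change of 0.04. Hoxc8, active in the brachial spinal cord and thoracic vertebrae, was at 5.23, 5.72, 4.24, 5.14 and 5.75 in G-CSF, against 5.46, 5.62, 5.67 and 5.77 in PBS. Its change of -0.42 (SE 0.27) was the most negative of the 37 genes. It rested in large part on G-CSF replicate 3, without which it was -0.17. On that array, Hoxc8 was below the array's low-signal level of 4.89. Hoxc9 was at 6.09, 6.20, 6.29, 5.86 and 5.64 in G-CSF, against 6.24, 5.24, 6.01 and 5.97 in PBS. Its change was of opposite sign within the sets, 0.46 in set 1 and -0.24 in set 2.

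Hoxc10, a gene of lumbar and hindlimb levels, was at 6.17, 5.85, 6.07, 5.95 and 6.34 in G-CSF, against 6.58, 5.40, 6.30 and 6.47 in PBS. PBS replicate 2 was its lowest array and the other PBS arrays were among the highest, with a change of -0.11 (interval -0.60 to 0.38). Hoxc12, below the line, was at 4.06, 3.96, 3.89, 4.13 and 4.11 in G-CSF, against 4.89, 4.20, 4.28 and 4.34 in PBS. All G-CSF arrays lay below all PBS arrays, and PBS replicate 1 was the single array above its own low-signal level. The change of -0.40 (SE 0.16) had a limma adjusted p of 0.429 and was -0.24 without PBS replicate 1.

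HoxD was the cluster with the fewest genes above the line. Hoxd8 was at 6.40, 6.52, 6.04, 6.11 and 6.01 in G-CSF, against 6.55, 6.38, 5.64 and 6.40 in PBS. Hoxd9 was at 5.57, 5.47, 5.00, 5.10 and 4.89 in G-CSF, against 5.51, 5.35, 5.32 and 5.33 in PBS. Both overlapped between groups, with changes of -0.03 and -0.17. Hoxd9 varied more among the G-CSF arrays (SD 0.30) than among the PBS arrays (SD 0.09), and its 2 highest G-CSF arrays were both of set 1.

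Hoxd10, a gene of lumbar motor neurons and the limb whose promoter is shown above, was at 4.66, 4.39, 4.54, 4.32 and 4.41 in G-CSF, against 4.02, 3.97, 4.19 and 3.80 in PBS. Every G-CSF array lay above every PBS array, yet all 9 values were below the low-signal level of their array. The change was 0.47 (1.39-fold, SE 0.14, interval 0.17 to 0.77), with a limma p of 0.00529 before adjustment and 0.163 after it. It was 0.54 in set 1 and 0.37 in set 2, and blocking on array set gave an adjusted p of 0.0997. Its neighbour Hoxd11, a partner of Hoxa11 in the forearm and lower leg, averaged 4.36 ± 0.26 in G-CSF and 4.08 ± 0.22 in PBS, also below the line, with a change of 0.28, and Hoxd12 had a change of 0.12. Hoxd13, at the end of the cluster, had a change of -0.39 (limma p 0.0344 before adjustment and 0.46 after it), and 1 PBS array lay within the G-CSF range.

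The Hox genes above the line also differed between the array sets. The mean of set 1 was higher than set 2 for 15 of these 24 genes (median difference 0.18) and for 4 of the 13 others (median difference -0.24), against 37.9% of all probe sets. That share pools probe sets above and below the line, so it does not show whether the split is particular to Hox genes. Interquartile ranges of log2 values were 2.79 to 2.99 on the set 1 arrays and 2.45 to 2.76 on the set 2 arrays. The low-signal levels of single arrays were 4.62 to 4.94 in set 1 and 4.90 to 5.14 in set 2. The part of these array differences in the split was not tested. Besides Hoxa3 and Hoxb2, Hoxa9 differed by 0.68, Hoxa6 by 0.42 and Hoxa10 by 0.40. The sets were found in these values, so these differences have no test.

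Genes for microRNAs lie inside the Hox clusters, and miR-196 is known to target Hoxb8 messenger RNA. Their mature 5p sequences are shown, with bases 2 to 8 (the seed) in capitals, because the seed sorts them into families across clusters (RefSeq, GRCm38.p6).
miR-10a-5p, HoxB, chr11:96317186-96317208, plus strand: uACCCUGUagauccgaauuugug
miR-10b-5p, HoxD, chr2:74726074-74726096, plus strand: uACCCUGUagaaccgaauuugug
miR-196a-5p, HoxB and HoxC, chr11:96265187-96265208 and chr15:102973365-102973386, plus strand: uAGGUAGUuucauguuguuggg
miR-196b-5p, HoxA, chr6:52230129-52230150, minus strand: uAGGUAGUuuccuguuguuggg
miR-615-5p, HoxC, chr15:103014926-103014947, plus strand: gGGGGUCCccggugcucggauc
The miR-10 genes share 1 seed and the miR-196 genes another, while the miR-615 seed stands alone. The array has probe sets for these 6 genes, which do not tell precursor from mature RNA. Mir10a averaged 2.46 ± 0.24 in G-CSF and 2.19 ± 0.40 in PBS, and Mir10b 2.05 ± 0.23 in G-CSF and 1.95 ± 0.27 in PBS, both well below the line. Mir196a-1 averaged 3.43 ± 0.20 in G-CSF and 3.36 ± 0.26 in PBS, and Mir196b 5.02 ± 0.43 in G-CSF and 4.71 ± 0.28 in PBS. Mir615 averaged 6.19 ± 0.28 in G-CSF and 6.37 ± 0.51 in PBS. Mir196a-2 was at 3.09, 4.12, 6.96, 3.79 and 3.87 in G-CSF, against 4.21, 3.21, 3.39 and 4.33 in PBS, and only G-CSF replicate 3 lay above the line. None of the 6 passed the threshold in limma (adjusted p from 0.818 to 0.981), and none had an unadjusted p under 0.05.

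Of the other genes inside or beside the clusters, 21 of 29 listed were measured, the 6 microRNA genes included, and 0 passed (median change 0.10). The smallest p-values belonged to Skap2, beside HoxA, with a change of 0.34 (limma adjusted p 0.648), and Mtx2, beside HoxD, with a change of 0.34 (limma adjusted p 0.761). Without G-CSF replicate 3 these changes were 0.21 and 0.22.

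Hox proteins need cofactors of the TALE homeodomain class, and 9 of 10 listed cofactor genes were measured, all above the line. Of these, 1 fell (against 0.877% of all probe sets), 0 rose (against 0.743%) and 8 did not pass, with a median change of 0.05. Pknox2, also called Prep2, a TALE partner of Pbx proteins that recognises the TGACAG letters marked above, was at 6.99, 6.86, 6.44, 6.59 and 6.73 in G-CSF, against 8.36, 8.13, 7.71 and 7.26 in PBS. Every G-CSF array lay below every PBS array. In PBS, both arrays of set 1 lay above both of set 2. Pknox2 fell 2.21-fold (change -1.15, SE 0.22, limma adjusted p 0.0193, and 0.00372 where array set was a block), by 1.48 in set 1 and 0.83 in set 2. The call was lost without G-CSF replicate 3 or 4 or PBS replicate 1 or 2 (adjusted p 0.0542 to 0.0632), and with the neutrophil marker mean as a covariate (adjusted p 0.377), where the change was as large, at -1.175. Its related gene Pknox1 had a change of 0.05. Markers of several cell types moved between the same groups. Of the 14 stromal markers 7 fell, with list means of 9.54 to 9.58 in G-CSF and 10.11 to 10.24 in PBS. Of 8 B lineage markers 3 fell, with list means of 4.85 to 5.17 in G-CSF and 5.53 to 5.81 in PBS, and of 7 erythroid markers 1 fell, with list means of 4.66 to 5.00 in G-CSF and 5.20 to 6.32 in PBS. Of 15 neutrophil markers 2 rose, and 1 of 8 macrophage, 1 of 6 bone cell and 0 of 8 endothelial markers fell. Ebf1 and Vcam1 stand both in the stromal list and in the B lineage or macrophage list, and are counted as falls in both. Vcam1 was the only macrophage marker that fell. The other B lineage markers that fell, Cd79a and Ms4a1, had PBS means of 4.46 and 4.07, below the low-signal level. The part of the stromal, B lineage and erythroid differences in the fall of Pknox2 was not tested.

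Pbx3 was at 6.44, 6.42, 6.57, 6.33 and 6.35 in G-CSF, against 6.76, 6.62, 6.95 and 6.55 in PBS, with a change of -0.30 (limma adjusted p 0.536). G-CSF replicate 3 alone lay inside the PBS range. Meis1 and Meis2, chosen after their values were seen, had changes of 0.42 and -0.37 and did not pass (limma adjusted p 0.579 and 0.573), the first being 0.27 without G-CSF replicate 3. Meis1 averaged 6.74 ± 0.40 in G-CSF and 6.32 ± 0.17 in PBS, and Meis2 averaged 7.16 ± 0.24 in G-CSF and 7.54 ± 0.29 in PBS. Within sets 1 and 2 the changes were 0.43 and 0.34 for Meis1 and -0.44 and -0.24 for Meis2. The sets are parts of the arrays in which these genes were chosen, so these values lend the opposite signs no separate support.

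**Figure D4:**
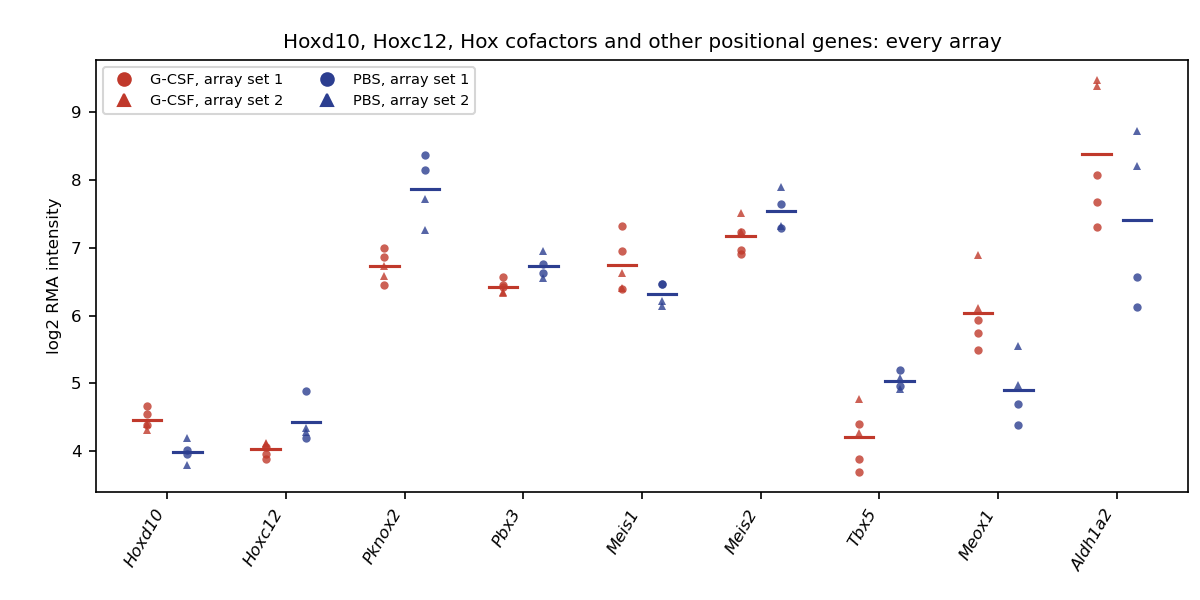
Log2 RMA intensity on every array for Hoxd10, Hoxc12, the cofactors Pknox2, Pbx3, Meis1 and Meis2, and Tbx5, Meox1 and Aldh1a2; red points are 5 G-CSF arrays, blue points 4 PBS arrays, circles array set 1, triangles array set 2, and bars group means. Pknox2 separates the groups (6.44 to 6.99 in G-CSF and 7.26 to 8.36 in PBS), while Aldh1a2 separates mainly by array set.

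Other homeobox and T-box genes with positional roles in limb, somite and face were measured for 40 of 44 listed, and 33 had a PBS mean above the line. None passed the threshold in limma, and the median change was 0.02. Tbx5, the forelimb T-box gene, was at 3.69, 3.89, 4.41, 4.77 and 4.27 in G-CSF, against 5.20, 4.97, 4.92 and 5.08 in PBS. The groups did not overlap, and the G-CSF arrays were all below the line over all arrays. The change was -0.84 (limma adjusted p 0.0746). The limma adjusted p was 0.0464 with sets blocked and 0.0284 without G-CSF replicate 4. It was 0.104 to 0.21 with any other array left out, 0.102 in set 1 alone and 0.62 in set 2 alone. Meox1, a homeobox gene of the somites, was at 5.93, 5.50, 5.74, 6.11 and 6.90 in G-CSF, against 4.71, 4.39, 4.97 and 5.55 in PBS. Only PBS replicate 4 reached into the G-CSF range. The change was 1.13 (limma adjusted p 0.0862), and it was 1.18 in set 1 and 1.24 in set 2. The limma adjusted p was 0.00457 with sets blocked and 0.0513 to 0.237 with 1 array left out.

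Polycomb and Trithorax proteins hold Hox clusters silent or active, and 29 of 32 listed genes were measured, all above the line in PBS. None passed in limma, and the median change was 0.01. The smallest p-values were those of Ring1, a Polycomb ubiquitin ligase (change -0.36, adjusted p 0.458), and Ash2l, a subunit of histone methyltransferase complexes (change -0.33, adjusted p 0.472). Of regulators upstream of Hox genes, such as Cdx genes and retinoic acid enzymes, 18 of 21 were measured and 0 passed. Aldh1a2, which makes retinoic acid, was at 7.30, 7.66, 8.06, 9.37 and 9.47 in G-CSF, against 6.57, 6.13, 8.20 and 8.71 in PBS. Set 2 was higher than set 1, and within each set every G-CSF array lay above every PBS array. Its change was 0.97 (limma adjusted p 0.735), with 1.33 in set 1 and 0.97 in set 2. With the set block it was 1.16 (limma adjusted p 0.00531), not counted as a call because the sets were found in these values. Egr2, an activator of Hox genes in the hindbrain, had a change of 0.68 (limma adjusted p 0.688). Without PBS replicate 2 the changes of Aldh1a2 and Egr2 were 0.55 and 0.36.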

How the data were processed

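The authors deposited RMA intensity values on a linear scale (per the submitters' processing notes, RMA was run in Affymetrix Expression Console; its version is not given in the sources used here). Log2 was taken before any test. RMA normalises arrays to a shared distribution, so differences are relative to other transcripts and a change in total RNA cannot be seen. Of 35553 probe sets, 21789 had 1 gene symbol and were tested, 1621 had several and 12143 none. G-CSF and PBS were compared with limma 3.58.1 (lmFit and eBayes, R 4.3.3) on 9 arrays, two-sided, without covariates, with Benjamini-Hochberg adjustment over all 21789 and a threshold of 0.05. The steps were tested on simulated data. Titles name biological replicates without saying which animals stand behind them, so a p-value reflects array-to-array spread, and the number of arrays limits precision.

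The members and lists were chosen with earlier results of these data known. Values in every array are given for Hox genes that passed, whose groups did not overlap, or whose mean over 9 arrays was above the low-signal level. Each companion list is represented by any gene past the threshold plus its 2 smallest p-values, and Meis1, Meis2 and the microRNA genes are added. Alternatives are given in the closing section; the second promoter window of Hoxa10 and Hoxd11 was added after seeing the data.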

Additional observations from a re-analysis of the deposited data

Results flagged for a closer look

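Of 110 groups of values checked for a single array far from the others, 4 were marked, where chance marks about 1 in 20. Hoxd1, a gene at the start of HoxD, was at 4.55 on PBS replicate 3, against 3.98 for the nearest PBS array, still below the low-signal level. Mir10a was at 2.79 on PBS replicate 3, against 2.02 for the nearest PBS array. PBS replicate 3 is also the array that stands apart on the first principal component. Mir196a-2 was at 6.96 on G-CSF replicate 3, against 4.12 for the nearest G-CSF array. Skap2 was at 8.23 on G-CSF replicate 3, against 7.65 for the nearest G-CSF array. The cause was not tested for any of these 4.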

How the results depend on the processing

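The number of Hox genes called stayed at 0 under every alternative run except an unadjusted p under 0.05, which gave 4. The median change lay between -0.11 (set 2 alone) and -0.04 under all alternatives. The count above the low-signal level was 20 to 35. The number of genes whose groups did not overlap was 2 with all arrays, 2 to 5 with 1 array left out, 14 in set 1 alone and 13 in set 2 alone (fewer arrays), and 0 of 19 among brighter probe sets. The shares of all probe sets on the same arrays were 4.65% with all arrays, 5.69% to 8.35% with 1 left out, 29% in set 1, 39.3% in set 2 and 7.15% among brighter ones. Same-numbered arrays correlated at 0.28, 0.14, -0.28 and 0.35 in their deviations from the group means. No values for arrays of different number stand beside these, so they cannot show whether replicate numbers pair the arrays. With the replicate number as a block (replicates 1 to 4), again 0 Hox genes were called, among 180 probe sets in all instead of 353. The set block called 598 probe sets, set 1 alone 202, set 2 alone 59, the neutrophil covariate 41 and all probe sets 181.

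Some changes that did not pass turned sign, up to 0.44 for Hoxc10 and -0.46 for Hoxc11. With the replicate block they turned for Hoxa6 (0.14), Hoxa7 (0.0279), Hoxb1 (-0.0203), Hoxb5 (-0.0464), Hoxb13 (-0.0089) and Hoxd8 (0.0243). In set 1 alone they turned for Hoxa6 (0.20), Hoxb5 (-0.21), Hoxb7 (0.14), Hoxb9 (0.24), Hoxc4 (-0.0378), Hoxc6 (-0.20), Hoxc10 (0.0375), Hoxc13 (0.14), Hoxd1 (0.0221) and Mir615 (0.0052). In set 2 alone they turned for Hoxa7 (0.0245), Hoxb1 (-0.14), Hoxb4 (0.0413), Hoxc9 (-0.24), Hoxc11 (-0.46), Hoxd4 (0.0572), Hoxd8 (0.0386), Mtx2 (-0.077), Mir10b (-0.0873) and Mir196a-2 (-0.0294). With the neutrophil marker mean as a covariate they turned for Hoxa6 (0.0252), Hoxa11 (-0.24), Hoxb1 (-0.0924), Hoxb4 (0.0133), Hoxb5 (-0.15), Hoxb6 (0.0602), Hoxb7 (0.25), Hoxb9 (0.0406), Hoxc5 (0.28), Hoxc6 (-0.25), Hoxc10 (0.44), Hoxd1 (0.0328), Hoxd8 (0.11) and Mir196a-1 (-0.0673). Array weights turned Hoxb4 (0.0561), Hoxb5 (-0.0442), Hoxb7 (0.0936), Hoxb9 (0.0788), Hoxc6 (-0.11), Hoxc10 (0.0211), Hoxc13 (0.11), Hoxd1 (0.092) and Mir615 (0.0061). A further quantile normalisation turned Hoxb1 (-0.0063) and Hoxd8 (5e-04), median centring Hoxb5 (-0.001), and the set block Hoxb7 (0.0014). With 1 array left out, ranges crossed 0 for Hoxa6 (-0.14 to 0.14), Hoxa7 (-0.11 to 0.11), Hoxa11 (-0.057 to 0.35), Hoxb1 (-0.11 to 0.22), Hoxb4 (-0.12 to 0.0383), Hoxb5 (-0.0749 to 0.0845), Hoxb7 (-0.12 to 0.079), Hoxb9 (-0.21 to 0.11), Hoxb13 (-0.0152 to 0.14), Hoxc4 (-0.0057 to 0.38), Hoxc6 (-0.13 to 0.18), Hoxc9 (-0.0529 to 0.28), Hoxc10 (-0.37 to 0.0222), Hoxc11 (-0.11 to 0.12), Hoxc13 (-0.23 to 0.16), Hoxd1 (-0.0805 to 0.12), Hoxd8 (-0.23 to 0.0765), Mir10b (-0.0171 to 0.20), Mir196a-1 (-0.0463 to 0.16), Mir196a-2 (-0.0673 to 0.90) and Mir615 (-0.37 to 0.0376). The causes were not tested. Pknox2 kept its sign under every alternative run, at -1.35 to -0.98 with 1 array left out, and its call was also lost in set 2 alone (limma adjusted p 0.305) and over all probe sets (0.0781).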
